A study of Homo sapiens with 12 samples.

Results

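The claudins described here are CLDN1, CLDN2, CLDN3, CLDN4, CLDN7, CLDN12, CLDN15, CLDN18 and CLDN23, 9 genes that were represented by 18 of the 54675 probe sets of an expression array. A probe set, a group of short probes read out as 1 value, was taken as a member when the array's annotation paired it with exactly 1 of these symbols. A further probe set that named CLDN12 together with PTTG1IP2 was left out. RNA came from Ls174T, an established human colorectal carcinoma line in which Wnt signalling is constitutively active, and was measured on 12 Affymetrix U133 Plus 2.0 arrays. The 4 groups of 3 arrays were Ls174T-pTER-β-catenin cells, which carry a doxycycline-inducible short hairpin RNA (shRNA) against β-catenin, left untreated or given doxycycline for 72 h, and Ls174T-L8 cells, which carry a doxycycline-inducible dominant-negative Tcf4 transgene, left untreated or given doxycycline for 24 h. The design asks which genes follow the activity of β-catenin and its DNA-binding partner Tcf4 in these cells. Line, construct and time differed together between the inductions and cannot be told apart, and doxycycline on cells without a construct was not analysed here. The labels do not say whether a line is a single clone, nor whether replicate arrays stem from different cultures, so that p-values measure the spread between these arrays, which may be technical.

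Claudins are membrane proteins that span the membrane repeatedly and form the strands of tight junctions, where neighbouring epithelial cells are sealed against each other. Some, such as claudin-2 and claudin-15, form pores that let small cations and water pass between cells, whereas others, such as claudin-1, claudin-3, claudin-4 and claudin-7, are mostly counted as sealing claudins. In the intestine claudin-2 is typical of the proliferating crypt base and claudin-4 and claudin-23 of the surface epithelium, and CLDN1 and CLDN2 have both been described as genes that respond to β-catenin and T-cell factor (TCF) proteins in colorectal cancer cells. The level of a claudin in an epithelium is read as part of its barrier, but the arrays measured RNA only, and neither protein nor junctions.

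The DNA just before the start of 3 claudins is shown first, because dominant-negative Tcf4 acts through DNA. These are the claudins whose change passed the test described below in both inductions, each time in the same direction. The windows hold the 250 bases before a transcription start, 5′ to 3′ in the gene's direction, from RefSeq on GRCh38.p14. CLDN2 has 2 listed starts, at chrX:106899914-106900163 and chrX:106918110-106918359, and CLDN4 and CLDN12 have 1 each, at chr7:73830746-73830995 and chr7:90403211-90403460, all on the plus strand. Capitals mark a match to a TCF-binding motif, here the letters CTTTGAA or CTTTGAT or CTTTGTA or CTTTGTT on either strand.
CLDN2 start 1: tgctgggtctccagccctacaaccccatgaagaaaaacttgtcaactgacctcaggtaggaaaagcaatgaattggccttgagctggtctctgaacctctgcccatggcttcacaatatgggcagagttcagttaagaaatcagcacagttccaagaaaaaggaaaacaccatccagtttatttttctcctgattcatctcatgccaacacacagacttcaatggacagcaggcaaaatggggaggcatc
CLDN2 start 2: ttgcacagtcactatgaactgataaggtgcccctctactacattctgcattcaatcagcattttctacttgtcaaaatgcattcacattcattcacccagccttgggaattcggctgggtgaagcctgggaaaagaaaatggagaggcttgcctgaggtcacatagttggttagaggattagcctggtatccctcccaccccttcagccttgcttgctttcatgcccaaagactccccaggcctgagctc
CLDN4: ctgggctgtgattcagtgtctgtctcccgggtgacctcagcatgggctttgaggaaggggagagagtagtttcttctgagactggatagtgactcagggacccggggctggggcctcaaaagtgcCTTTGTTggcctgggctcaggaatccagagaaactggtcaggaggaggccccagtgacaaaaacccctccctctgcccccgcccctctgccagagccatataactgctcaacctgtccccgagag
CLDN12: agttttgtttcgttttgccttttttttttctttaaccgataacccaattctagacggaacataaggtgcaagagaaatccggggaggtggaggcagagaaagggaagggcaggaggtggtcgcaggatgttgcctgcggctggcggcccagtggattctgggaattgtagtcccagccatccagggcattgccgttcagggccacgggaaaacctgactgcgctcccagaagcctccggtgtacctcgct
Among these windows the CLDN4 sequence alone held a match, CTTTGTT on the plus strand, beginning 125 bases before the start. Windows were listed for 8 of the 9 genes, all but CLDN23, and of these 11 windows 1 held a match, which is 9.09%. The same letters occurred in 4199 of 35116 windows of this length over all genes, or 11.96%. A match is a description of the letters and does not show that a factor binds there.

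Values are MAS5 signals in arbitrary units on a linear scale. Changes are differences of mean log2 signal, induced minus uninduced, with the standard error (SE) of a limma fit over all 12 arrays, and a change was called at a Benjamini-Hochberg adjusted p under 0.05 over the 27280 probe sets tested. A probe set was tested when its mean log2 signal reached 3.35, a signal of 10.2. Of the 18 claudin probe sets 11 were tested, at least 1 for each gene, and 7 were too dim. The arrays had median signals between 12.1 and 15.3, and arrays of a group correlated with each other at r = 0.958 to 0.969 over log2 signals. The shRNA acted on its target: the CTNNB1 probe set 201533_at had a mean signal of 3784 ± 195 (SD, n = 3) uninduced and 156 ± 21.4 (SD, n = 3) induced, 24.4-fold lower with an adjusted p of 6.75e-14. Probe set 1554411_at of CTNNB1 was 15.2-fold lower (adjusted p = 1.74e-11). The remaining CTNNB1 probe set, 223679_at, had overlapping groups and a log2 change of -0.54, which did not pass (adjusted p = 0.12). The dominant-negative Tcf4 transgene was seen in the TCF7L2 probe set 212759_s_at, whose mean signal went from 108 ± 29.5 (SD, n = 3) to 1286 ± 499 (SD, n = 3), 11.6-fold higher with an adjusted p of 2.69e-08, and in 212762_s_at, which was 7.55-fold higher. The other 4 tested TCF7L2 probe sets were 1.33- to 1.65-fold higher with dominant-negative Tcf4 and 1.40- to 1.67-fold higher with the shRNA, and of these 216511_s_at was called in neither induction. Of 12 markers of colorectal epithelium all were above the filter. Their summed signals were 18766 to 21297 uninduced and 37542 to 43347 induced in the shRNA line. In the dominant-negative Tcf4 line they were 25490 to 28353 and 37091 to 41251. With the shRNA 7 were called higher and 1 lower, and with dominant-negative Tcf4 6 higher and 0 lower. Over all probe sets 25.1% and 26.1% were called. The largest log2 changes were those of KRT20 (6.66), KRT19 (2.61) and LGALS4 (2.40) with the shRNA. With dominant-negative Tcf4 they were LGALS4 (2.29), KRT20 (2.03) and GPA33 (1.71). GPA33 was called lower with the shRNA (-0.48). The part of these genes in the claudin changes was not tested.

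CLDN2, the pore-forming claudin, fell about as far in both inductions. Its signals on the 3 arrays were 361.7, 389.8 and 451.2 in the uninduced shRNA line and 111.1, 89.1 and 92.7 after induction. In the dominant-negative Tcf4 line they were 1245, 1089.2 and 1175.5 before and 239.8, 211.2 and 287.1 after induction. The 4 groups did not overlap anywhere: the uninduced dominant-negative Tcf4 line was highest, then the uninduced shRNA line, then the induced dominant-negative Tcf4 line, and the induced shRNA line was lowest. The log2 signal fell by 2.04 with the shRNA (SE 0.13, 4.11-fold, adjusted p = 1.51e-08) and by 2.26 with dominant-negative Tcf4 (SE 0.13, 4.79-fold, adjusted p = 7.39e-09). The difference between these changes was 0.22 with a 95% interval from -0.18 to 0.62 and did not pass (adjusted p = 0.52). Because these are bulk RNA samples, fewer cells that express CLDN2 and less CLDN2 RNA in each cell cannot be told apart, and the same holds for the other genes. CLDN15, which also forms cation pores, had signals of 42.7 to 51 uninduced and 31.8 to 61 induced in the shRNA line, and 25.5 to 50.8 uninduced and 19.2 to 34.3 induced in the dominant-negative Tcf4 line. Its groups overlapped in both lines, and its log2 changes of -0.06 (adjusted p = 0.92) and -0.44 (adjusted p = 0.35) did not pass. Those values are of probe set 219640_at. A second CLDN15 probe set, 1552845_at, was below the filter. It read 2.8, 8.9 and 2.4 uninduced and 17.5, 17.6 and 8.7 induced in the shRNA line. In the dominant-negative Tcf4 line it read 9.7, 15.1 and 15 uninduced and 17.3, 4.7 and 5.7 induced. In a fit with no filter its log2 changes of 1.83 (adjusted p = 0.14) and -0.75 (adjusted p = 0.68) did not pass.

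CLDN4, a sealing claudin, moved opposite to CLDN2 and rose in both inductions. Its probe set 201428_at read 234.9, 241.1 and 186.2 in the uninduced shRNA line and 561.9, 568.5 and 594.1 after induction. In the dominant-negative Tcf4 line it read 175, 157.4 and 235 before induction and 1123.9, 957.6 and 1099.5 after it. The uninduced groups overlapped, and the induced dominant-negative Tcf4 arrays all lay above the induced shRNA arrays, which all lay above both uninduced groups. The log2 signal rose by 1.39 with the shRNA (SE 0.14, 2.62-fold, adjusted p = 2.20e-06) and by 2.50 with dominant-negative Tcf4 (SE 0.14, 5.68-fold, adjusted p = 5.02e-09). The rise was larger with dominant-negative Tcf4, at 24 h, than with the shRNA, at 72 h: the difference of the changes, shRNA minus dominant-negative Tcf4, was -1.11 (SE 0.20, adjusted p = 0.00167). A second CLDN4 probe set, 1569421_at, stayed between 1.1 and 13.7 on every array and was not tested.

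Within each array the log2 signal of CLDN4 was also set against that of CLDN2, as a difference that does not depend on how an array was scaled. This pair was chosen after its values were seen, and its shift is the sum of the changes given above, so it is a description with no test and says nothing on which gene has more RNA. The difference lay between -1.28 and -0.62 in the uninduced shRNA line and between 2.34 and 2.68 after induction. In the dominant-negative Tcf4 line it lay between -2.83 and -2.32 before and between 1.94 and 2.23 after induction.

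**Figure D1:**
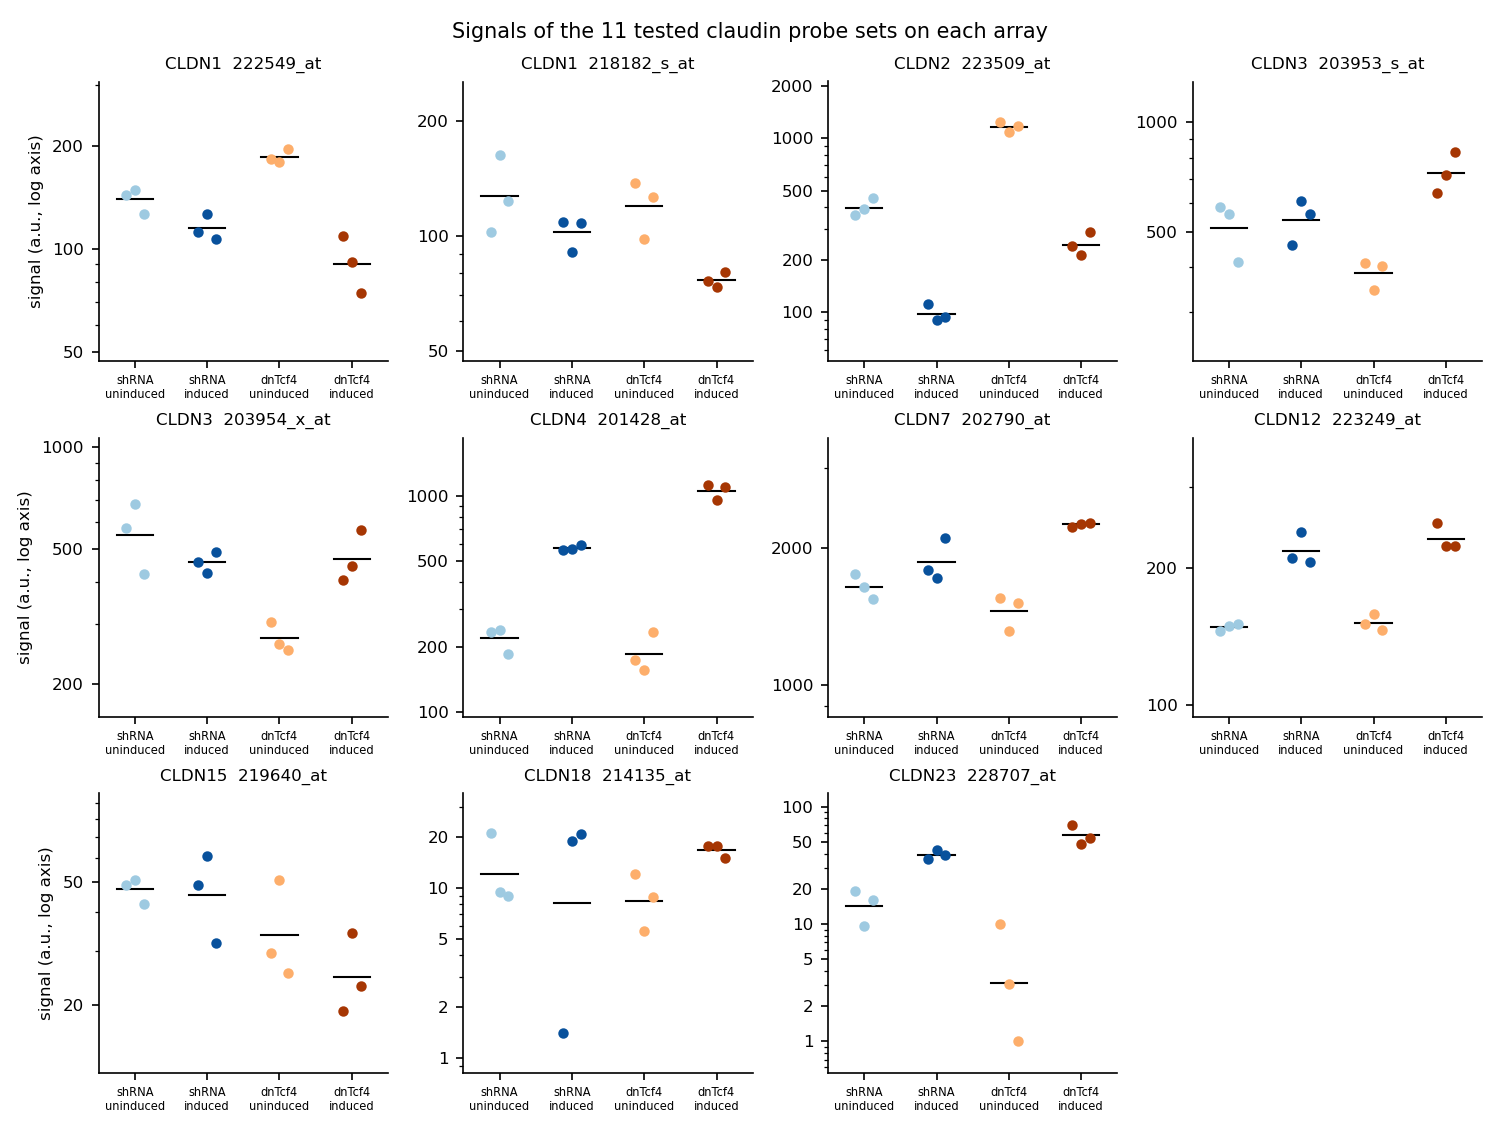
Signal of the 11 tested claudin probe sets (arbitrary units, log axis) on each of the 12 arrays. Points are arrays, signals under 1 are drawn at 1, and black bars are geometric means of the 3 arrays of a group. CLDN2 was lower and CLDN4, CLDN12 and, at low signals, CLDN23 were higher in both induced groups with no overlap. CLDN3, CLDN7, CLDN1 and, at low signals, CLDN18 separated in the dominant-negative Tcf4 line and overlapped in the shRNA line.

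The other sealing claudins moved with dominant-negative Tcf4 and did not pass the test with the shRNA. CLDN7, which sits along the sides of epithelial cells and binds EPCAM, read 1555.8, 1314 and 1517 in the uninduced and 2230.2, 2264.7 and 2269.5 in the induced dominant-negative Tcf4 line. In the shRNA line it read 1759.2, 1642.5 and 1547.3 uninduced and 1795, 1716.3 and 2107.9 induced. The dominant-negative Tcf4 groups were apart and the shRNA groups overlapped. The log2 signal rose by 0.63 with dominant-negative Tcf4 (SE 0.09, 1.55-fold, adjusted p = 8.13e-05), and was 0.18 higher with the shRNA (SE 0.09, adjusted p = 0.17). The difference of the changes, -0.45, passed with an adjusted p of 0.032, but this call was lost in 8 of the 12 fits that left out 1 array: each induced dominant-negative Tcf4 array, uninduced dominant-negative Tcf4 replicate 2, and replicates 1 and 2 of both shRNA groups.

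CLDN3, a sealing claudin and, with CLDN4, a receptor of the Clostridium perfringens enterotoxin, was read by 2 probe sets. Probe set 203953_s_at read 410.7, 344.8 and 402.2 in the uninduced and 640.8, 716.7 and 827.7 in the induced dominant-negative Tcf4 line. In the shRNA line it read 583.3, 560.3 and 412.9 uninduced and 459.4, 606.5 and 558.9 induced. So the dominant-negative Tcf4 groups were apart and the shRNA groups were mixed. Its log2 signal rose by 0.91 with dominant-negative Tcf4 (SE 0.14, 1.88-fold, adjusted p = 1.82e-04), and the value with the shRNA was 0.07 with a 95% interval from -0.24 to 0.37. Probe set 203954_x_at, whose suffix marks probes that can pick up other transcripts, rose by 0.78 with dominant-negative Tcf4 (SE 0.16, adjusted p = 0.00157) and was at -0.26 with the shRNA (adjusted p = 0.26). Without uninduced shRNA replicate 3, whose 203954_x_at signal of 423.6 was the lowest of its group, that value became -0.45 and was called lower (adjusted p = 0.034). The changes differed between the inductions for both probe sets, by -0.84 (adjusted p = 0.0128) and -1.04 (adjusted p = 0.00607), and kept these calls whichever array was left out.

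CLDN1, also a barrier claudin, fell where CLDN3, CLDN4 and CLDN7 rose. Probe set 222549_at read 182.7, 179.2 and 195.3 in the uninduced and 109, 91.7 and 74.1 in the induced dominant-negative Tcf4 line, with no overlap. In the shRNA line it read 143.9, 148.7 and 126.3 uninduced and 112.2, 126.4 and 107.1 induced, and the highest induced array just passed the lowest uninduced array. Its log2 signal fell by 1.04 with dominant-negative Tcf4 (SE 0.15, 2.05-fold, adjusted p = 8.53e-05), and its change with the shRNA was -0.28 (SE 0.15, adjusted p = 0.21). The second probe set, 218182_s_at, read 137.6, 98.5 and 126.8 uninduced and 76.5, 73.6 and 80.7 induced in the dominant-negative Tcf4 line, which again did not overlap. It fell by 0.64 (SE 0.18, 1.56-fold, adjusted p = 0.0143), a call that was lost without uninduced dominant-negative Tcf4 replicate 1 (-0.54, adjusted p = 0.073) or replicate 3 (-0.60, adjusted p = 0.052). With the shRNA its change was -0.31 (adjusted p = 0.24), and the groups overlapped. The changes of 222549_at differed by 0.76 between the inductions (adjusted p = 0.029), but the call was lost in 6 of 12 fits that left out an array: each uninduced dominant-negative Tcf4 array, induced dominant-negative Tcf4 replicate 3, induced shRNA replicate 2 and uninduced shRNA replicate 3. For 218182_s_at the difference was 0.33 (adjusted p = 0.47).

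CLDN12, a claudin that lacks the usual PDZ-binding tail and has been linked to calcium passage, rose by nearly the same amount in both inductions. It read 145.2, 149 and 150.2 uninduced and 209.7, 239.6 and 205.7 induced in the shRNA line, and 150.5, 158.4 and 146.1 uninduced and 250.3, 223.3 and 222.6 induced in the dominant-negative Tcf4 line. Every induced array lay above every uninduced array, and within each state the lines overlapped. The log2 signal rose by 0.56 (SE 0.11, 1.47-fold, adjusted p = 0.00155) and by 0.61 (SE 0.11, 1.53-fold, adjusted p = 7.21e-04). Their difference was -0.06 with a 95% interval from -0.39 to 0.28.

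CLDN23, a claudin of the intestinal surface, had the largest fitted increase of the members, at low signals. Probe set 228707_at read 10, 3.1 and 0.7 in the uninduced and 70.1, 48.4 and 54.8 in the induced dominant-negative Tcf4 line. In the shRNA line it read 19, 9.6 and 16 uninduced and 36.2, 42.7 and 38.7 induced. Induced and uninduced arrays did not overlap in either line. The log2 signal rose by 4.18 with dominant-negative Tcf4 (SE 0.60, adjusted p = 8.28e-05), with signals under 1 set to 1. The size of this change depended on the dim arrays: it was 3.36 without uninduced dominant-negative Tcf4 replicate 3, 5.02 without replicate 1, and 3.07 when an offset of 3.5 was added before taking log2, and it stayed called each time. With the shRNA the log2 signal was 1.45 higher (SE 0.60), which did not pass (adjusted p = 0.094), but with the offset it was 1.25 higher and called (adjusted p = 0.018). The same comparison was called when only the shRNA line's arrays were fitted (adjusted p = 0.0098), and without uninduced dominant-negative Tcf4 replicate 1 (adjusted p = 0.025) or 3 (adjusted p = 0.018), whose scatter enters the shared SE. The difference of the changes, -2.73, had an adjusted p of 0.0488 and was lost without any of 11 of the 12 arrays, uninduced dominant-negative Tcf4 replicate 1 being the exception. A second CLDN23 probe set below the filter, 228706_s_at, read 1.1, 5.1 and 5.9 uninduced and 35.2, 15.6 and 20.4 induced in the shRNA line, and 1.2, 3.5 and 2 uninduced and 10.6, 15.3 and 41.9 induced in the dominant-negative Tcf4 line, again without overlap. In a fit with no filter it was higher by 2.80 (adjusted p = 0.036) and 3.22 (adjusted p = 0.015). The third, 228704_s_at, was between 0.6 and 1.9 on every array.

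CLDN18, the claudin of gastric and lung epithelium, was near the low end of the signals. Probe set 214135_at read 20.9, 9.5 and 9 uninduced and 1.4, 18.8 and 20.7 induced in the shRNA line, and 12.1, 5.6 and 8.8 uninduced and 17.6, 17.6 and 15 induced in the dominant-negative Tcf4 line. The dominant-negative Tcf4 groups did not overlap, but the log2 changes of -0.57 with the shRNA (adjusted p = 0.68) and 0.99 with dominant-negative Tcf4 (adjusted p = 0.44) did not pass. The sign with the shRNA rested on 1 array: without induced shRNA replicate 1 it was 0.70. The other 3 CLDN18 probe sets were below the filter, between 0.3 and 9.3. In the dominant-negative Tcf4 line 232578_at read 7, 7.1 and 7.9 uninduced and 3, 4.8 and 3.5 induced, which was lower without overlap. Probe set 221133_s_at read 1.4, 1.5 and 2.2 uninduced and 0.7, 0.8 and 1.1 induced there, also lower without overlap. In a fit with no filter their log2 changes of -0.99 (adjusted p = 0.68) and -0.69 (adjusted p = 0.48) did not pass. Among 11 markers of gastric epithelium, by contrast, 6 were tested and 3 were called higher in each induction, beside 25.1% and 26.1% of all probe sets called: MUC5AC, a gastric mucin, by 2.53 on the log2 scale with the shRNA and by 4.57 with dominant-negative Tcf4, TFF1, a mucosal peptide, by 4.02 and 2.07, and TFF2, its relative, by 4.98 and 3.84. The summed signal of the 11 was 389 to 399 uninduced and 1742 to 2142 induced in the shRNA line, and 1186 to 1558 uninduced and 4608 to 5284 induced in the dominant-negative Tcf4 line. GKN1, GKN2, VSIG1, ANXA10 and SOX2 of that list were below the filter. Of these, ANXA10 read 1.1 to 4.3 in the shRNA line. In the dominant-negative Tcf4 line it read 38 to 43.7 uninduced and 34.5 to 56.7 induced, which overlapped. The part of these genes in the claudin changes was not tested.

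**Figure D2:**
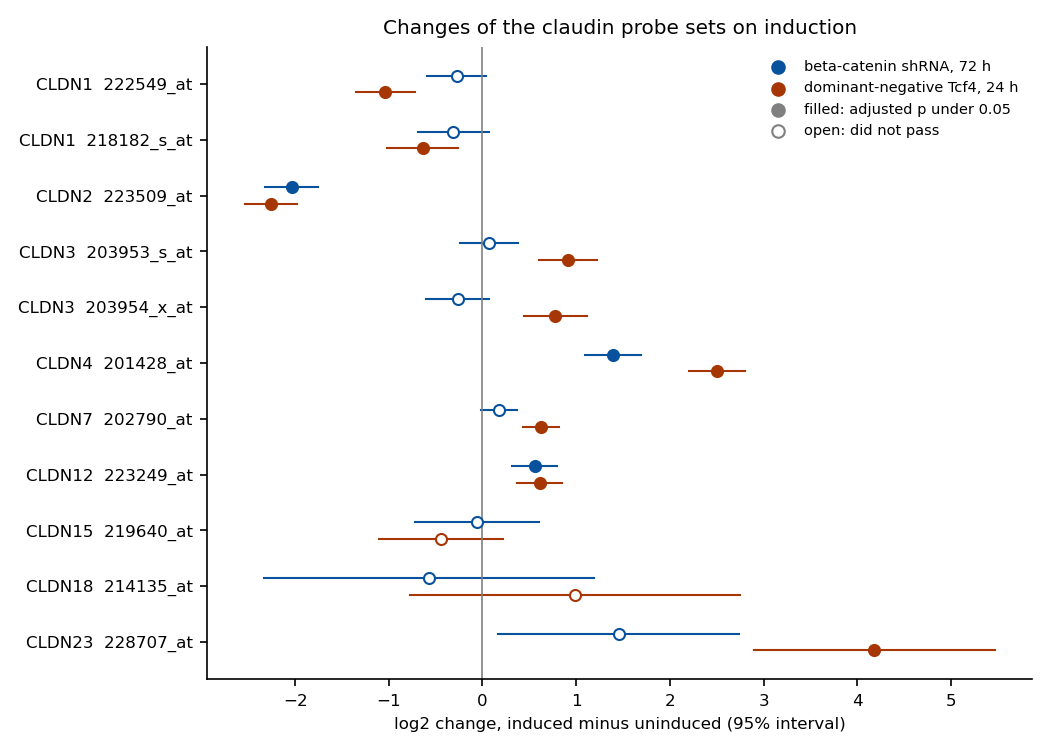
Log2 change of each tested claudin probe set (induced minus uninduced) with its 95% interval, blue for the β-catenin shRNA at 72 h and brown for dominant-negative Tcf4 at 24 h. Filled points passed an adjusted p under 0.05; CLDN2 lies left of 0 and CLDN4 and CLDN12 lie right of 0 in both inductions, and 6 further probe sets are filled for dominant-negative Tcf4 alone.

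With the shRNA 3 of 11 claudin probe sets were called, 2 higher and 1 lower, or 27.3%. Over all probe sets tested 25.1% were called, 3325 higher and 3528 lower, so the claudins' count was near that of the array. With dominant-negative Tcf4 9 of 11 were called, 6 higher and 3 lower, or 81.8%, and these belonged to 7 of the 9 genes. Over all probe sets 26.1% were called, 3268 higher and 3857 lower. The median log2 change of the claudin probe sets was -0.06 with the shRNA, where that of all probe sets was 0.01, and 0.63 with dominant-negative Tcf4, where that of all was -0.04. Induced and uninduced arrays did not overlap for 4 of the 11 with the shRNA, beside 37.8% of all probe sets, and for 10 of 11 with dominant-negative Tcf4, beside 40.7%. The probe sets of CLDN2, CLDN4 and CLDN12 were called in both inductions, each time in the same direction, and 6 others with dominant-negative Tcf4. Those of CLDN15 and CLDN18 were called in neither.

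The test of the difference was called for 6 of 11 claudin probe sets from 5 genes, beside 11.9% of all probe sets. In 5 of them, of CLDN3, CLDN4, CLDN7 and CLDN23, the change with the shRNA was the lower, and in 1, of CLDN1, it was the higher. As given above, the calls of CLDN4 and CLDN3 held with every array left out in turn, and those of CLDN1, CLDN7 and CLDN23 did not. No call of a difference was made for CLDN2, CLDN12, CLDN15 or CLDN18. These tests use the arrays of both inductions, so they are not independent of the changes they compare.

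The claudins also differed between the lines before induction. Subtracting the untreated shRNA arrays from the untreated dominant-negative Tcf4 arrays gave a called difference for 5 of 11 probe sets, beside 29.5% of all. CLDN2 was higher by 1.55 on the log2 scale (2.93-fold, adjusted p = 2.74e-07), with no overlap of the arrays. CLDN3 was lower, by -1.01 in 203954_x_at (2.01-fold, adjusted p = 1.52e-04) and by -0.41 in 203953_s_at (adjusted p = 0.039), both without overlap, and the second call was lost in 5 of 12 fits that left out an array. CLDN23 was lower by -2.19 (adjusted p = 0.012) although the arrays overlapped. That call was lost without uninduced shRNA replicate 1 (-1.98, adjusted p = 0.0501) and when only the arrays compared were fitted (adjusted p = 0.117), and its value was -3.02 without uninduced dominant-negative Tcf4 replicate 1, -1.36 without replicate 3 and -1.31 with the offset. CLDN1 222549_at was higher by 0.41 (adjusted p = 0.0485), a call lost in 9 of 12 such fits. For CLDN4 the difference was -0.23 (adjusted p = 0.24), for CLDN7 it was -0.18 (adjusted p = 0.17), and for CLDN12 it was 0.03 with a 95% interval from -0.21 to 0.27. This comparison shares the uninduced arrays with the induction changes. For CLDN3 203954_x_at the induced dominant-negative Tcf4 arrays, at 404.2 to 568, lay within the range of the uninduced shRNA arrays, at 423.6 to 677.3, except for the lowest of them.

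Other claudins were mostly too dim to follow. Of 15 further claudins listed 11 were on the array with a single symbol and 3, CLDN10, CLDN14 and CLDN19, were tested. With the shRNA limma called 0 of these 3, and 1 had an unadjusted p under 0.05 (CLDN19, log2 change 1.20, adjusted p = 0.054). With dominant-negative Tcf4 CLDN14 was called higher, from 1.9, 1.3 and 19.8 to 16.9, 21.5 and 14.2 (log2 change 2.24, adjusted p = 0.042). Its groups overlapped, and the call was lost without each of 9 of the 12 arrays and with the offset before log2 (1.30, adjusted p = 0.063).

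The proteins that join claudins into tight junctions changed in both directions. Of 31 membrane and plaque partners listed 22 were tested, and 4 were called higher and 2 lower with the shRNA, and 8 higher and 1 lower with dominant-negative Tcf4, beside 25.1% and 26.1% of all probe sets called. The count of 6 of 22 with the shRNA was thus near that of the array. Their median log2 changes were 0.03 and 0.15, beside 0.01 and -0.04 over all probe sets. With dominant-negative Tcf4 the largest change was that of CGN, or cingulin, which ties the junction to the actomyosin ring. It read 3.9, 19.6 and 21.3 uninduced and 169.1, 213.9 and 220.5 induced, a log2 change of 4.09 (adjusted p = 1.05e-05). The uninduced signals were low, and this change lay between 3.29 and 4.51 when 1 array was left out, always called. With the shRNA the CGN change was -0.47 and did not pass. TJP3, the scaffold ZO-3 that binds claudin tails, rose in both lines, from 207.3, 233.3 and 209.7 to 353.2, 365.6 and 411 with the shRNA (log2 change 0.80, adjusted p = 4.86e-04) and from 103.6, 93.1 and 91.4 to 318.2, 365.8 and 481.4 with dominant-negative Tcf4 (2.00, adjusted p = 5.14e-08). PALS1, a polarity scaffold of the Crumbs complex, fell in both, by 0.81 (adjusted p = 4.65e-04) and by 1.45 (adjusted p = 1.84e-06) on the log2 scale. PATJ, its partner scaffold, rose by 0.82 with the shRNA (adjusted p = 3.68e-04). With dominant-negative Tcf4 the PATJ change of -0.06 did not pass (adjusted p = 0.82). CGNL1, or paracingulin, fell with the shRNA by 1.77 (adjusted p = 0.019), a call lost without induced replicate 1 (-1.38), uninduced replicate 1 (-1.65) or uninduced replicate 3 (-1.60) of that line. With dominant-negative Tcf4 the CGNL1 change of 0.51 did not pass (adjusted p = 0.54).

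OCLN, or occludin, the other classical strand protein, is given in addition and was chosen after its values were seen. It read 356.7, 380.7 and 402.6 uninduced and 358.8, 342.8 and 407.4 induced in the shRNA line, which were mixed. In the dominant-negative Tcf4 line it read 341, 355.7 and 371.9 uninduced and 920, 656.7 and 749.1 induced, which were apart. Its log2 signal rose by 1.11 with dominant-negative Tcf4, and the difference of the changes was -1.15, which was called. Over the 22 partners tested 7 differences were called, beside 11.9% of all probe sets, 5 of them with the lower change in the shRNA line. The other 2 were those of MARVELD2, at 0.76 (adjusted p = 0.0108), and PATJ, at 0.87 (adjusted p = 0.0084). MARVELD2 rose by 0.79 with the shRNA (adjusted p = 1.91e-04). Its change of 0.03 with dominant-negative Tcf4 did not pass (adjusted p = 0.88). MARVELD2 was likewise named after its values were seen.

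Proteins that bind or modify claudins were read from a further list. Of 12 listed 10 were tested, and 4 were called higher and 1 lower with the shRNA, and 8 higher and 1 lower with dominant-negative Tcf4, beside 25.1% of all probe sets (3325 higher and 3528 lower) and 26.1% (3268 higher and 3857 lower). Their median log2 changes were 0.10 and 0.59, beside 0.01 and -0.04 over all probe sets. EFNB1, a membrane ephrin that associates with claudins, rose by 1.79 with dominant-negative Tcf4 (adjusted p = 2.76e-04). With the shRNA the EFNB1 change of -0.26 did not pass (adjusted p = 0.59). PRSS8, or prostasin, a membrane protease of epithelial barriers, rose by 0.66 with the shRNA (adjusted p = 0.00499) and by 1.42 with dominant-negative Tcf4 (adjusted p = 6.30e-06). EPHA2, a receptor kinase that phosphorylates claudin-4, rose by 1.28 with dominant-negative Tcf4 (adjusted p = 4.60e-06) and by 0.44 with the shRNA (adjusted p = 0.026), a call lost without induced replicate 2 (0.33) or 3 (0.45) or uninduced replicate 1 (0.30) of that line. LNX1, a ubiquitin ligase of claudins, rose by 0.71 with the shRNA (adjusted p = 0.00277) and by 0.73 with dominant-negative Tcf4 (adjusted p = 0.00239). The tetraspanin CD81 fell by 0.57 (adjusted p = 2.95e-04) and by 0.41 (adjusted p = 0.00439). EPCAM, the binding partner of claudin-7, had geometric mean signals of 4634 and 4452 in the uninduced and induced dominant-negative Tcf4 line, a log2 change of -0.06 (adjusted p = 0.61).

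**Figure D3:**
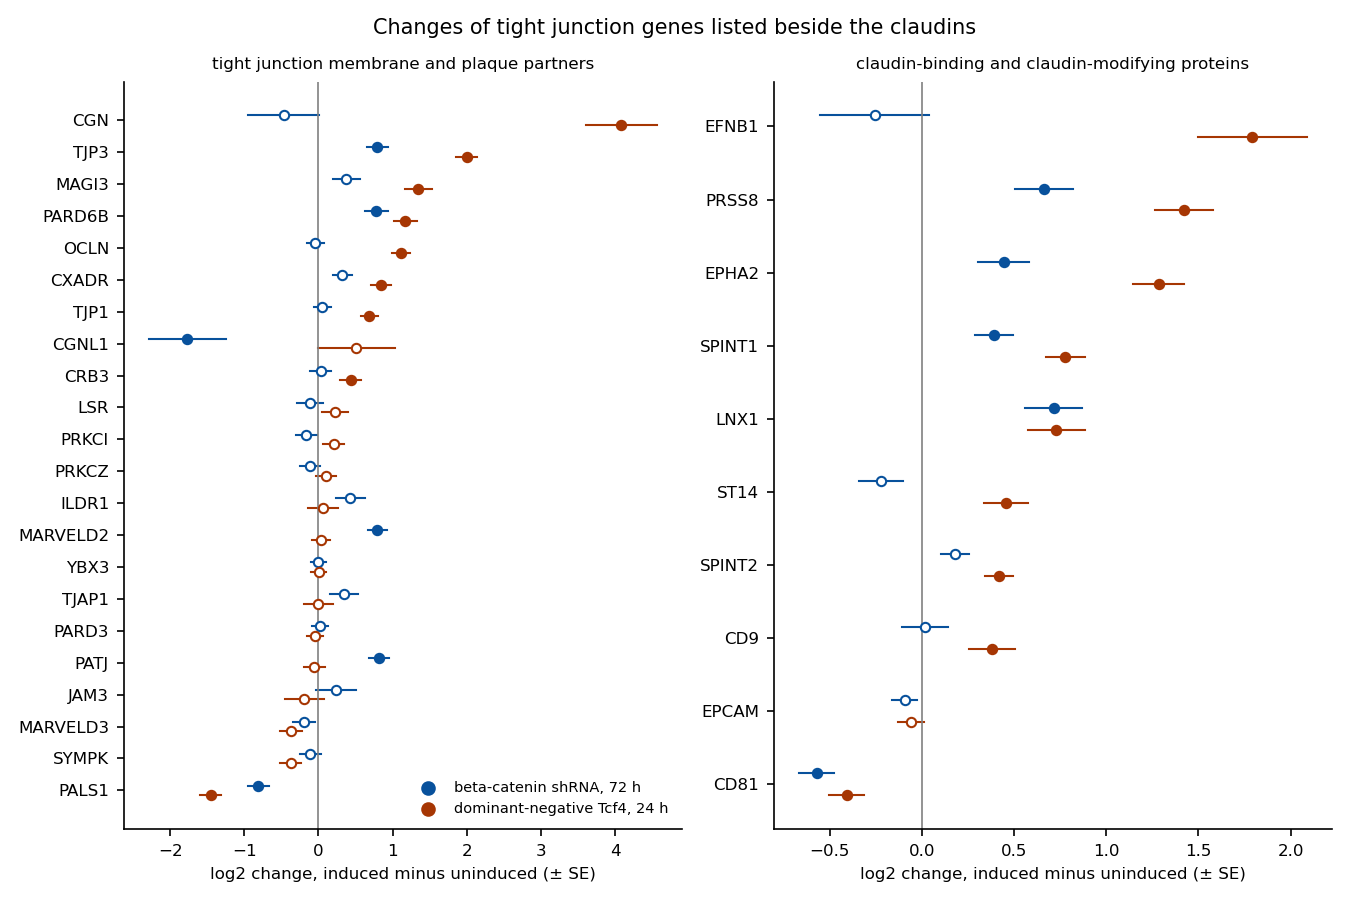
Log2 change (induced minus uninduced, with SE) of the 22 tested tight junction partners on the left and of the 10 tested claudin-binding and claudin-modifying proteins on the right, ordered by the change with dominant-negative Tcf4. Blue is the β-catenin shRNA at 72 h, brown dominant-negative Tcf4 at 24 h, and filled points passed an adjusted p under 0.05; CGN at 4.09 stands out in brown and CGNL1 at -1.77 in blue.

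Transcription factors that have been linked to claudin genes were read from a list of 17, of which 10 were tested. In each induction 4 were called higher and 1 lower, and the median log2 changes were 0.26 in the shRNA line and 0.06 in the other. Over all probe sets 25.1% and 26.1% were called, and the medians were 0.01 and -0.04. ELF3, an epithelial ETS factor, read 168.5, 122.9 and 120.6 uninduced and 485.2, 482.6 and 522.7 induced in the shRNA line (log2 change 1.87, adjusted p = 6.23e-08), and 127.4, 138.6 and 124.3 uninduced and 886.5, 1122.9 and 1142.1 induced in the dominant-negative Tcf4 line (3.01, adjusted p = 6.93e-10). KLF4, a factor of differentiated intestinal cells, rose by 1.31 (adjusted p = 4.16e-07) and 2.35 (adjusted p = 1.05e-09). KLF5, its relative of the crypt, rose by 0.59 with the shRNA (adjusted p = 3.58e-04) and by 0.64 with dominant-negative Tcf4 (adjusted p = 1.69e-04). GATA6, an intestinal factor, rose by 0.65 with the shRNA (adjusted p = 6.20e-05), and its change with dominant-negative Tcf4 did not pass.

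For each claudin called in at least 1 induction, the genes whose log2 signal ran most alike over the 12 arrays were looked up among 12385 genes. The 12 arrays fall into 4 groups and share their scaling, so these Pearson r mostly follow the group means, and they are given as a description. For CLDN2 they were TMEM201, POLD3 and CSNK2A2, each at r = 0.99. For CLDN4 they were ERLN, ZMIZ1 and ELF3, each at r = 0.98, and ELF3 is the factor described above. For CLDN12 they were SEC24A at 0.99, and MFSD6 and YIPF5 at 0.98. For CLDN23 they were S100A14 and C1orf116 at 0.94 and KLF4 at 0.93. For CLDN7 they were ISG20 at 0.96, CAPN5 at 0.95 and ACTR3 at 0.94, and for CLDN3 BTG1 at 0.97, WDR45 at 0.96 and KCNK6 at 0.93. For CLDN1 they were LFNG at 0.97, R3HDM1 at 0.96 and NOL9 at 0.95.

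CLDN3 and CLDN4 are neighbours on chromosome 7, with 0 protein-coding genes between them in RefSeq, and the genes on either side were read as well, a choice made after the claudins' values were seen. In RefSeq's order they are BUD23, STX1A and ABHD11 before CLDN3, and METTL27, TMEM270 and ELN after CLDN4. Of these 6 neighbours 4 were tested. With dominant-negative Tcf4 3 of the 4 were called, beside 26.1% of all probe sets: METTL27, next to CLDN4, rose by 1.25 on the log2 scale, ABHD11, next to CLDN3, rose by 0.59, and BUD23 fell by 0.47. With the shRNA 1 of the 4 was called, beside 25.1% of all probe sets: BUD23, which fell by 0.29. For ABHD11 the changes differed by -0.67 (adjusted p = 0.0032), so that its change, like those of CLDN3 and CLDN4, was lower with the shRNA.

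**Figure D4:**
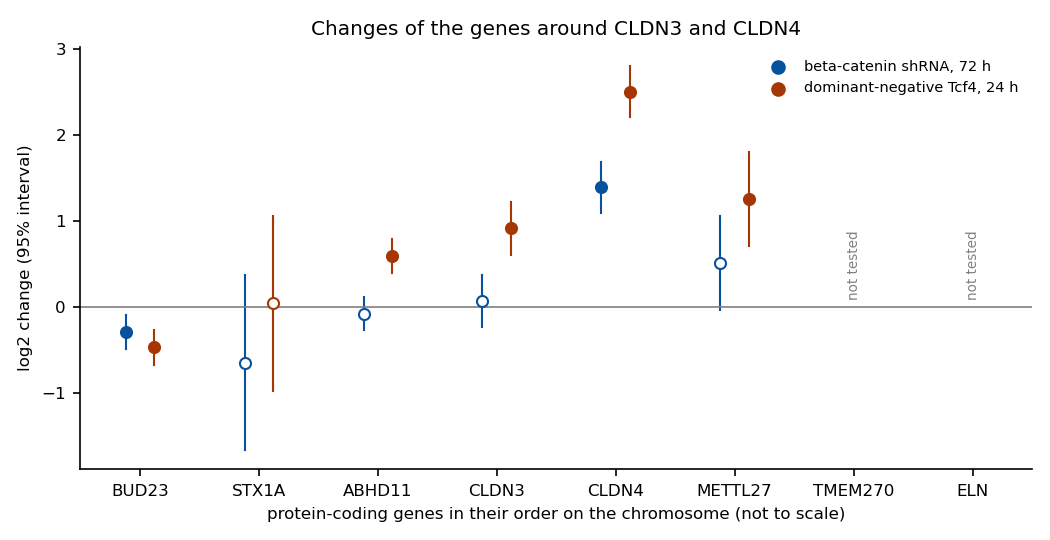
Log2 change with its 95% interval (vertical axis) of CLDN3, CLDN4 and the neighbouring protein-coding genes in their order on the chromosome, not to scale. Blue is the β-catenin shRNA at 72 h and brown dominant-negative Tcf4 at 24 h, filled points passed an adjusted p under 0.05, and CLDN3 is drawn by 203953_s_at; ABHD11, CLDN3, CLDN4 and METTL27 are filled and above 0 in brown, and CLDN4 is the only one of the 4 filled in blue.

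Markers of cell types that a carcinoma line should not hold had low sums beside those of the epithelial list. Summed over their lists, 6 endothelial markers lay between 35.7 and 75.8 and 5 leukocyte markers between 17.5 and 85.8 on all arrays, and the 1 tested marker of each list was not called in either induction. The other 4 leukocyte markers measured (PTPRC, CD3E, CD14 and LYZ) and the other 5 endothelial ones (VWF, CDH5, KDR, TEK and CLDN5) were below the filter. The summed leukocyte signal was nonetheless higher with the shRNA, at 45.6 to 54.6 uninduced and 66 to 85.8 induced, and LYZ, or lysozyme, which Paneth cells of the intestine also make, read 10.8, 15.9 and 0.7 uninduced and 50.3, 41.8 and 46.6 induced, without overlap. In the dominant-negative Tcf4 line the leukocyte sum was 28.6 to 42.3 uninduced and 17.5 to 33.8 induced. The part of the leukocyte markers in the claudin changes was not tested. The summed signal of 7 fibroblast markers was 112 to 145 uninduced and 124 to 176 induced in the shRNA line, and 123 to 149 uninduced and 179 to 215 induced in the dominant-negative Tcf4 line. Of these 7 genes 5 were tested and LUM, or lumican, was called higher in both inductions, by 1.94 and 2.19 on the log2 scale. LUM was dim in the shRNA line, at 6.3, 2.4 and 6.1 uninduced and 25.6, 22.8 and 8.9 induced. That shRNA call was lost in 1 of the alternative fits (adjusted p = 0.082). COL1A1, DCN, FAP and THY1 were tested and not called, and COL1A2 and COL3A1 were below the filter. The part of the fibroblast markers in the claudin changes was not tested.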

How the data were processed

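RNA of 12 Ls174T samples was hybridised to 1 Affymetrix U133 Plus 2.0 array each, 3 arrays per group. The deposited table holds 1 intensity (signal) per probe set and array on a linear scale. MAS5 and GCOS were used, per the submitters' processing notes, with versions not given in the sources used here. The trimmed mean (2% off each end) was 100.0 on every array, so an overall change in RNA per cell cannot be seen. The file has no detection calls, and 6.58% to 9.25% of the values of an array were under 1. Symbols came from the array's annotation: 41097 probe sets had 1 symbol, 1801 had several and 11777 had none. The 62 control probe sets were left out.

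Signals were floored at 1 and put on the log2 scale. Probe sets whose mean log2 signal reached the median of the array (3.35) were fitted with limma 3.58.1 in R 4.3.3, with 4 group means over 12 arrays (8 residual degrees of freedom), moderated variances that follow a trend with signal (7.60 prior degrees of freedom). P-values are two-sided and Benjamini-Hochberg adjusted over all 27280 probe sets tested. The number of arrays limits the precision. The steps were run on simulated data with 100 changed probe sets per size. In the shRNA and dominant-negative Tcf4 comparisons 44% and 43% of 2-fold changes were recovered. Of 4-fold changes 79% and 80% were recovered. Among 129 and 133 calls, 6 and 10 were false. A change that did not pass is therefore not shown to be absent.

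All claudin probe sets were described, and the tested ones of CTNNB1 and TCF7L2 served as a check. From each list up to 3 called members per induction with the largest change were named, and per called claudin the 3 genes most alike. The claudins and the lists were chosen with earlier results of these data known. The genes next to CLDN3 and CLDN4, the pair of CLDN4 and CLDN2, OCLN, MARVELD2, CLDN19, EPCAM, LYZ and the ANXA10 values were added after values were seen. The same holds for several second-induction values and differences of named genes. For lists 1 probe set per gene, the brightest with a single symbol, was used. Promoter windows and gene order came from RefSeq. No genome build of the array annotation was given, so no gene coordinates are reported. Alternatives were quantile normalization, median centring, an offset, no filter, a stricter filter, 1 probe set per gene, no variance trend, array weights, the arrays compared alone, a replicate block and leaving out each array. Replicate numbers were checked for pairing, and arrays of the same number showed no shared deviation. The check cannot exclude that such arrays were cultured or processed together.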

Additional observations from a re-analysis of the deposited data

Results flagged for a closer look

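For 6 claudin probe sets the test of the difference between the inductions was called, with the change given as shRNA minus dominant-negative Tcf4 on the log2 scale. The value was -1.11 for CLDN4 201428_at (adjusted p = 0.0017), -0.84 for CLDN3 203953_s_at (adjusted p = 0.0128) and -1.04 for CLDN3 203954_x_at (adjusted p = 0.0061), and these 3 calls were kept whichever array was left out. It was -0.45 for CLDN7 202790_at (adjusted p = 0.032), 0.76 for CLDN1 222549_at (adjusted p = 0.029) and -2.73 for CLDN23 228707_at (adjusted p = 0.0488), and these calls were lost in 8, 6 and 11 of the 12 fits without 1 array. Line, construct and time differ together between the inductions and cannot be told apart. Groups of 3 arrays were too small to look for single arrays that stand apart.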

How the results depend on the processing

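The calls of CLDN2, CLDN4 and CLDN12 in both inductions, and with dominant-negative Tcf4 those of CLDN7, CLDN3 (both probe sets), CLDN23 and CLDN1 222549_at, kept direction and side of the threshold under every alternative run. A stricter filter at log2 6.29 (signal 78.2) removed CLDN23, CLDN15 and CLDN18, which then had no value. Leaving out 1 array gave 3 to 4 called claudin probe sets with the shRNA, 8 to 9 with dominant-negative Tcf4, 3 to 5 in the difference (6 with all arrays) and 2 to 5 between the lines (5 with all arrays); over all probe sets it gave 5597 to 7069, 5656 to 7376, 2412 to 3083 and 6389 to 8210. The claudin count in the difference was 3 with median centring and 2 with no variance trend, and between the lines it was 3 with no filter and 3 with no variance trend. With no variance trend 2147 probe sets were called in the difference, and the call of CLDN3 203953_s_at was lost there (adjusted p = 0.061). With 1 probe set per gene, which tests fewer, 4217 were called with the shRNA, 4455 with dominant-negative Tcf4 and 4625 between the lines. Median centring moved the median over all probe sets between the lines from 0.01 to 0.12 and the share of calls that were higher from 48.3% to 63.4%, and in the difference from 50.2% to 39.7%. The reversals were all of changes that were not called: CLDN1 218182_s_at between the lines was 0.027 with median centring and between -0.24 and 0.091 when 1 array was left out. With the shRNA, CLDN3 203953_s_at was -0.010 with array weights and between -0.088 and 0.18 when 1 array was left out, CLDN18 214135_at lay between -1.24 and 0.70, and CLDN15 219640_at between -0.27 and 0.20. The cause of these moves was not tested. Arrays of the same replicate number showed no shared deviation (r from -0.03 to 0.06), and 2 of 6 induced arrays correlated best with their own number. This check cannot show whether the samples were paired. A fit with the replicate block called 3 claudin probe sets with the shRNA, 9 with dominant-negative Tcf4 and 4 in the difference. In that difference CLDN1 222549_at (adjusted p = 0.052) and CLDN7 (adjusted p = 0.069) were lost. Over all probe sets the block fit called 6316, 6607 and 2575. With no depth in array data, low signals such as those of CLDN18 and CLDN23 limit the precision.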
